A study of Rattus norvegicus with 16 samples.

Results

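Cdh6 (ENSRNOG00000013535), Cdh13 (ENSRNOG00000014371) and Amigo2 (ENSRNOG00000007032) are genes for cell adhesion proteins that each stood highest in a different subfield of the rat hippocampus. They are 3 of the 32883 genes in the deposited counts and of the 17174 genes with more than 10 counts in sum, all 3 of which passed that limit. The 3 genes were chosen by measured values, since the study had listed Cdh6 as a marker of CA1, Amigo2 as a marker of CA2 and Cdh13 as a marker of the dentate gyrus (DG) on these same libraries. The comparisons of a gene with its marked subfield are therefore given as a description without a test, and the other 3 comparisons of each gene were tested. Together the levels make a combination of adhesion genes that differed from subfield to subfield. CA3 carried none of the 3 at its highest level. Both follow from the choice of the genes, none of which was listed for CA3, and are no finding.

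Cadherins bind cadherins on a neighbouring cell in a calcium-dependent way. Cdh6 encodes a type II classical cadherin, with an intracellular tail that binds catenins and through them the actin skeleton. Cdh13 encodes T-cadherin, an unusual cadherin held in the membrane by a lipid anchor and without an intracellular tail. Amigo2 encodes a membrane protein with leucine-rich repeats and an immunoglobulin domain, and its messenger RNA is widely used as a marker of CA2 pyramidal cells. The hippocampal circuit runs from DG granule cells to CA3 and on to CA1, with CA2 between them, and adhesion proteins of these families take part in how axons and synapses are sorted among such layers.

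Tissue came from male Wistar rats aged 3 months, for which the labels name no treatment and no altered gene. The granular layer of DG and the pyramidal layers of the 3 CA subfields were cut by laser from Cresyl violet stained sections, CA2 being told from CA3 by how its cells were packed. There were 4 libraries of total RNA per subfield, numbered 1 to 4. In CA2 and in DG the columns of replicates 2 and 4 were nearly the same library: a chi-square test of their counts, divided by its degrees of freedom, came to 1.001 in CA2 (12995 genes, p = 0.456), so that these differed by no more than sampling noise, and to 1.036 in DG (13766 genes, p = 0.00176), slightly more than sampling noise. It was between 2.799 and 43.48 for the other 22 pairs within a subfield. Each of the 2 pairs was summed and counted as 1 sample, so that CA1 and CA3 had n = 4, and CA2 and DG had n = 3. Library totals ran from 3216512 to 11933279 counts, and 3 counts, the limit that a count of 0 allows, were worth between 0.259 and 0.928 CPM (counts after scaling each library to the same size, with TMM normalization). Such limits cover counting error only. The layers hold other cells beside the neurons, and in such bulk samples a lower level can come from fewer cells of a type or from less RNA per cell, which cannot be told apart. The marker genes fixed for the subfields were matched for 6 of 6 in CA1, 2 of 6 in CA2, 5 of 6 in CA3 and 5 of 6 in DG, and the 14 genes that the study lists for CA3 summed to between 274 and 304 CPM there and to at most 42.8 CPM in any other library, while markers of glia, vessels, interneurons and excitatory neurons in general were not analysed here.

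Cdh6 was a gene of the CA1 layer, and its level elsewhere was low. In CA1 it had 15.0, 16.8, 17.4 and 19.2 CPM in replicates 1 to 4, with a mean of 17.1 ± 1.74 CPM (SD, n = 4). In CA2 it had 2.5 CPM in replicate 1, 5.16 CPM in the summed replicates 2 and 4 and 2.37 CPM in replicate 3. The lowest CA1 library thus stood 2.9-fold above the highest CA2 library. In CA3 it had 2.47, 4.66, 2.85 and 3.4 CPM in replicates 1 to 4. In DG it had 0.911 CPM in replicate 1, 2.27 CPM in the summed replicates 2 and 4 and 1.92 CPM in replicate 3. The DG libraries all lay below those of CA2 and CA3, but the gap was narrow, since the lowest CA2 library was 1.04-fold and the lowest CA3 library 1.09-fold above the highest DG library. How many of all genes tested were separated in this way was not counted. The value of DG replicate 1 rests on 5 counts, whose exact Poisson 95% interval runs from 0.296 to 2.12 CPM.

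The log2 fold change of Cdh6 in CA1 was 2.31 ± 0.27 (standard error) over CA2, 2.31 ± 0.24 over CA3 and 3.18 ± 0.29 over DG, which are 4.95-fold, 4.96-fold and 9.09-fold. These are the values by which the gene was chosen. Outside CA1, where the comparisons were tested, the order was that CA2 and CA3 stood together and DG below them. CA2 and CA3, at 3.34 ± 1.57 (SD, n = 3) and 3.35 ± 0.957 CPM (SD, n = 4), overlapped, and their log2 difference was 0.00 with a 95% interval from -0.61 to 0.62 (adjusted p = 1, quasi-likelihood F-test of edgeR, Benjamini-Hochberg adjustment over all genes tested). The interval leaves room for a difference in either direction and does not show that the levels were equal. Cdh6 was higher in CA3 than in DG, which had 1.7 ± 0.706 CPM (SD, n = 3), by 0.87 ± 0.32 on the log2 scale (standard error; adjusted p = 0.0343 in edgeR). CA2 over DG gave nearly the same log2 fold change, 0.88 (standard error 0.34), with an adjusted p of 0.0502 in edgeR that did not pass the threshold of 0.05. In the fit with a replicate block it was called (adjusted p = 0.0122 or 0.0106, with the repeated pairs under their lower or higher number). Thinned to equal totals it was 0.46 (adjusted p = 0.512). Neither result was firm across the settings, and the fits below that left out 1 library had no replicate block. CA3 over DG was called with the replicate block (adjusted p = 0.00922 or 0.00904 in edgeR). It was no longer called without CA3 replicate 2 (log2 fold change 0.64, adjusted p = 0.148), CA3 replicate 4 (0.87, 0.0523), DG replicate 1 (0.65, 0.129) or DG replicate 3 (0.88, 0.0759). CA2 over DG fell to 0.37 without the summed CA2 replicates 2 and 4 (adjusted p = 0.467 in edgeR). It was called without CA2 replicate 1 (0.99, 0.0405), CA2 replicate 3 (1.07, 0.0281), CA3 replicate 2 (0.87, 0.0402) or the summed DG replicates 2 and 4 (1.14, 0.0494).

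**Figure D1:**
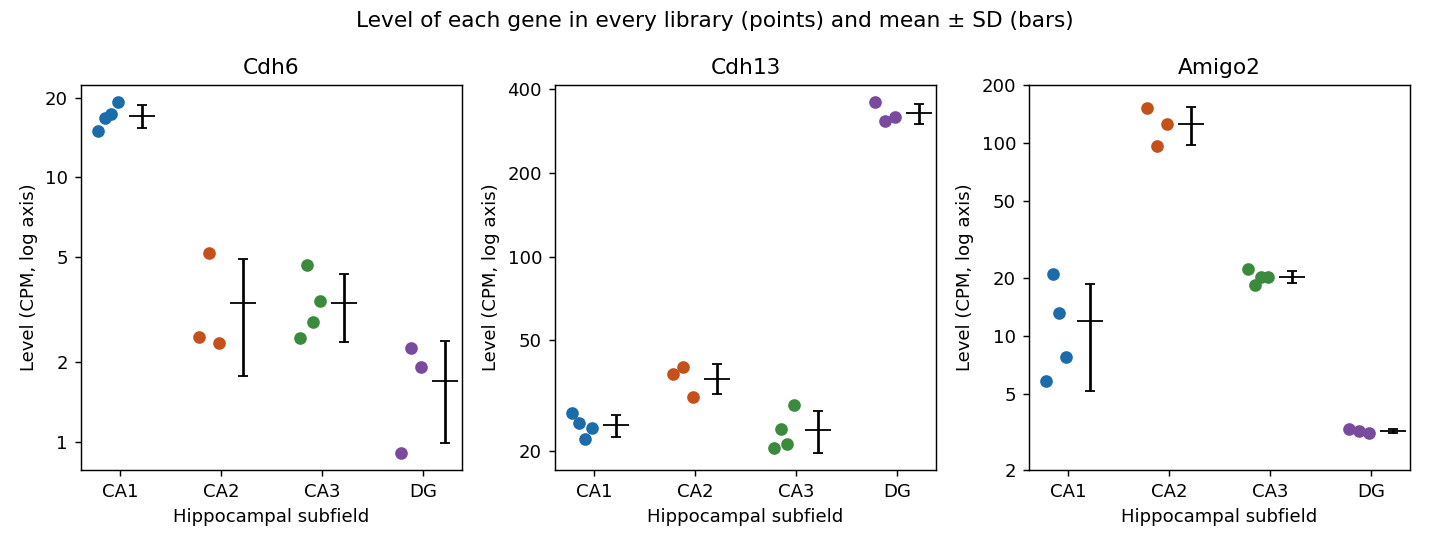
Level of Cdh6, Cdh13 and Amigo2 (CPM, log axis) in every library by subfield, with points for the libraries and bars for the mean ± SD (n = 4 for CA1 and CA3, otherwise n = 3). Cdh6 stands highest in CA1 (17.1 CPM), Cdh13 in DG (328 CPM) and Amigo2 in CA2 (125.0 CPM), and the 4 CA1 points of Amigo2 spread from 5.78 to 20.8 CPM.

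Cdh13 was highest in DG by a wide margin, with a smaller step between CA2 and the other pyramidal layers. In DG it had 358 CPM in replicate 1, 307 CPM in the summed replicates 2 and 4 and 318 CPM in replicate 3, with a mean of 328 ± 27.3 CPM (SD, n = 3). In this layer 98.4% of the genes tested had a lower level, against 65.8% in CA1, 73.4% in CA2 and 65.3% in CA3. Its level in CA1 was 27.3, 25.1, 22 and 24.1 CPM in replicates 1 to 4. In CA2 it was 37.8 CPM in replicate 1, 39.9 CPM in the summed replicates 2 and 4 and 31.3 CPM in replicate 3. In CA3 it was 20.5, 24.0, 21.1 and 29.3 CPM in replicates 1 to 4. All CA2 libraries lay above all CA1 and CA3 libraries, with a ratio of 1.15 between the closest libraries of CA2 and CA1 and of 1.07 between those of CA2 and CA3, while the CA1 and CA3 libraries overlapped. The share of all genes tested with such a separation was not counted, so it is given as a description only.

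The DG level of Cdh13 was 13.2-fold that of CA1 (log2 fold change -3.73 for CA1 over DG, standard error 0.13), 9.01-fold that of CA2 (-3.17, standard error 0.14) and 13.8-fold that of CA3 (-3.79, standard error 0.13), again as a description. Among the pyramidal layers, which were tested, Cdh13 was higher in CA2, at 36.4 ± 4.49 CPM (SD, n = 3), than in CA1, at 24.7 ± 2.21 CPM (SD, n = 4), or in CA3, at 23.7 ± 4.02 CPM (SD, n = 4). The log2 fold change was 0.62 over CA3 (1.54-fold, standard error 0.13, adjusted p = 0.00357 in edgeR). For CA1 over CA2 it was -0.55, or 1.47-fold higher in CA2 (standard error 0.13, adjusted p = 0.00563 in edgeR). Both calls were kept in each of the 14 fits that left out 1 library. Thinned to equal totals, CA2 over CA3 was 0.51 and no longer called (adjusted p = 0.051 in edgeR). CA1 over CA2 was still called then (-0.55, adjusted p = 0.0188). CA1 and CA3 differed by a log2 value of 0.06 with a 95% interval from -0.20 to 0.33 (adjusted p = 0.764 in edgeR). Cdh13, listed for DG, was therefore also higher in CA2 than in the layers on either side of it, by a step far smaller than that of DG.

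Amigo2 was highest in CA2 and lowest in DG, with CA3 and CA1 between them and overlapping each other. In CA2 it had 153 CPM in replicate 1, 96.7 CPM in the summed replicates 2 and 4 and 126 CPM in replicate 3, with a mean of 125.0 ± 27.9 CPM (SD, n = 3). The level in CA3 was 22.1, 18.3, 20.1 and 20.1 CPM in replicates 1 to 4, a mean of 20.2 ± 1.56 CPM (SD, n = 4). The CA3 libraries were thus close to each other, with a coefficient of variation of 7.72%. In CA1 the level was 5.78, 20.8, 13.1 and 7.73 CPM in replicates 1 to 4, a mean of 11.9 ± 6.72 CPM (SD, n = 4), and CA1 replicate 2 reached into the range of CA3. In DG it was 3.28 CPM in replicate 1, 3.18 CPM in the summed replicates 2 and 4 and 3.11 CPM in replicate 3. With a coefficient of variation of 56.7%, CA1 was the subfield with the widest relative spread of any member, whereas the DG libraries differed by 2.59%. These DG levels rest on 18, 49 and 26 counts. The exact Poisson 95% interval of DG replicate 1 runs from 1.94 to 5.18 CPM, so the small DG spread does not show a steady level.

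As a description, the CA2 level of Amigo2 was 10.1-fold that of CA1 (log2 fold change -3.33 for CA1 over CA2, standard error 0.26), 6.2-fold that of CA3 (2.63, standard error 0.24) and 39.0-fold that of DG (5.29, standard error 0.33). Both other pyramidal layers were above DG in the tests. CA3 was 6.3-fold above DG (log2 fold change 2.65, standard error 0.33, adjusted p = 1.19e-06 in edgeR) and CA1 3.88-fold above DG (log2 fold change 1.95, standard error 0.34, adjusted p = 0.000107). Both held in all 22 alternative settings. The step from CA1 to CA3 was 1.62-fold upward (log2 fold change -0.70 for CA1 over CA3, standard error 0.25, adjusted p = 0.0457 in edgeR), and it rested on single libraries. Without CA1 replicate 2 the log2 fold change was -1.16 (adjusted p = 0.000595 in edgeR), without CA1 replicate 1 it was -0.45 (adjusted p = 0.133), and 10 of the 14 fits that left out 1 library did not call it. The other 4 were those without CA1 replicate 2, CA2 replicate 1, the summed CA2 replicates 2 and 4 or DG replicate 1. With the replicate block the step was called (adjusted p = 0.0185 or 0.00447 in edgeR, with the repeated pairs under their lower or higher number).

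**Figure D2:**
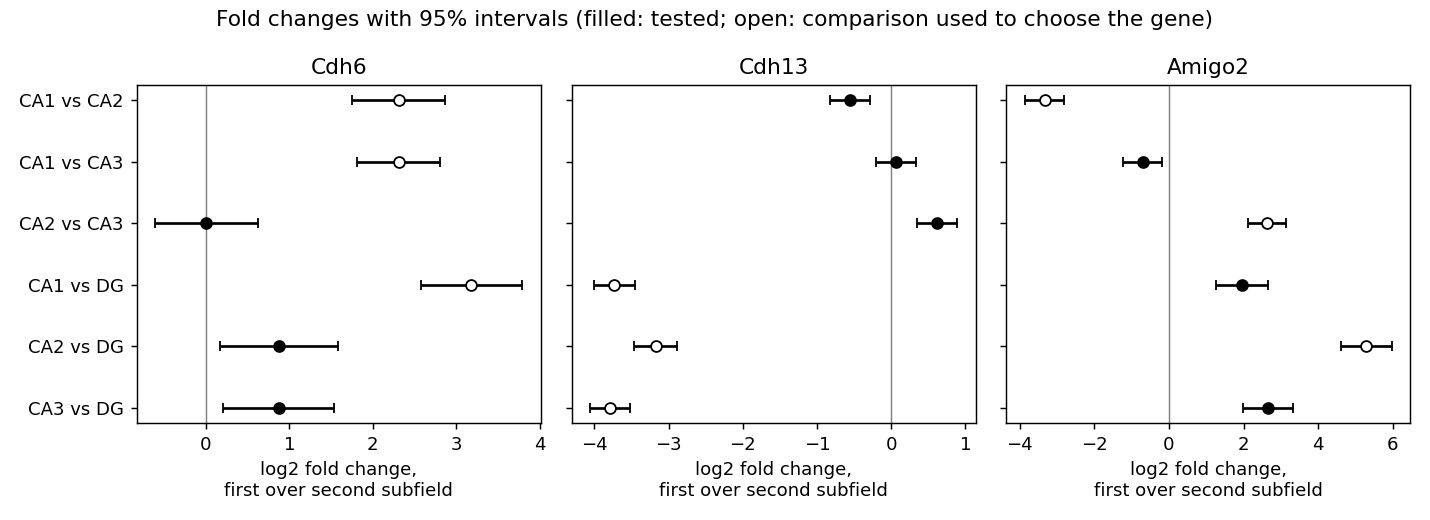
Log2 fold change of each gene, first subfield over second, in the 6 comparisons, with 95% intervals; filled points are tested comparisons and open points those by which the gene was chosen. The tested interval of Cdh6 in CA2vsCA3 is centred on 0.00, while those of Cdh13 in CA1vsCA2 (-0.55) and CA2vsCA3 (0.62) do not reach 0.

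Of the 9 tested comparisons, 6 were called: 1 of 3 for Cdh6, 2 of 3 for Cdh13 and 3 of 3 for Amigo2. Over all genes tested, the same threshold called 14.3% of genes between CA1 and CA2, 24.8% between CA1 and CA3 and 7.65% between CA2 and CA3. Against DG it called 29.4% of genes from CA1, 35.4% from CA2 and 40.2% from CA3. A call against DG was thus common in these data, and one between CA2 and CA3, as for Cdh13, was less so. The comparisons share libraries and are not independent of each other. The spread between libraries of a subfield also differed among the members: the biological coefficient of variation fitted for Cdh13 was 0.116, lower than the median of 0.148 over all genes, while Cdh6 had 0.189 and Amigo2 0.232.

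The place of the 3 genes among those that met the rule is given as a description. Adjusted p-values under 0.05 and log2 fold changes over 2 against each other subfield were reached by 0.291% of genes for CA1 (50 genes), 0.111% for CA2 (19 genes) and 1.49% for DG (256 genes). The smallest of the 3 log2 fold changes was 2.31 for Cdh6, the 30th largest of the 50 CA1 genes, 2.63 for Amigo2, the 9th of the 19 CA2 genes, and 3.17 for Cdh13, the 99th of the 256 DG genes. In CPM, Amigo2 stood at place 2 among the CA2 genes, Cdh13 at place 8 among the DG genes and Cdh6 at place 18 among the CA1 genes.

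The combination of the 3 genes within a library, which does not depend on library size, set the subfields apart. Of the summed counts of the 3 genes, Cdh13 made up between 98.3% and 98.8% in the DG libraries. Amigo2 made up between 68.2% and 79.1% in CA2. In CA1 the counts were shared by all 3, with between 26.7% and 37.6% for Cdh6, between 40.1% and 56.9% for Cdh13 and between 12% and 33.2% for Amigo2. CA3 resembled CA1 in its Cdh13 share, between 45.5% and 55.5%, but had a higher Amigo2 share, between 38.0% and 49.0%, and a lower Cdh6 share, between 5.48% and 9.93%. These shares depend on gene length and are meaningful only between subfields. They follow from the way the genes were chosen for CA1, CA2 and DG. CA3 was marked by none of them, but each choice also required a lower level in CA3 than in the marked subfield. The lower Cdh6 share of CA3 against CA1, Amigo2 share against CA2 and Cdh13 share against DG are therefore no finding. The shares of a library depend on each other, and a lower Cdh6 share by itself raises those of Cdh13 and Amigo2. The Cdh13 and Amigo2 shares of CA3 against CA1 are therefore no finding either, and the CPM ranges of Amigo2 overlapped there.

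The 3 ratios between a pair of these genes are given as a description, without a test. The counts of Cdh13 per count of Cdh6 lay between 1.26 and 1.83 in CA1, between 5.15 and 8.62 in CA3, between 7.74 and 15.1 in CA2 and between 135 and 394 in DG. CA2 and CA3 overlapped in this ratio, as its lowest CA2 value, that of the summed replicates 2 and 4, lay below the highest of CA3. The counts of Amigo2 per count of Cdh13 were between 0.685 and 1.08 in CA3, between 0.211 and 0.828 in CA1, between 2.42 and 4.03 in CA2 and between 0.00915 and 0.0104 in DG. CA1 and CA3 overlapped here through CA1 replicate 2. The counts of Amigo2 per count of Cdh6, between 0.386 and 1.24 in CA1 and between 3.93 and 8.95 in CA3, kept CA1 and CA3 apart, with CA2 between 18.8 and 61.0 and DG between 1.4 and 3.6. In this last ratio no ranges overlapped, but the gaps from CA1 to DG (1.24 to 1.4) and from DG to CA3 (3.6 to 3.93) were narrow. Between CA1 and CA3 it takes in the 4.96-fold step of Cdh6 by which that gene was chosen. Amigo2 itself differed 1.62-fold there, and its ranges overlapped. All 3 ratios hold comparisons by which the genes were chosen, so the separation of subfields is in part a result of that choice.

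**Figure D3:**
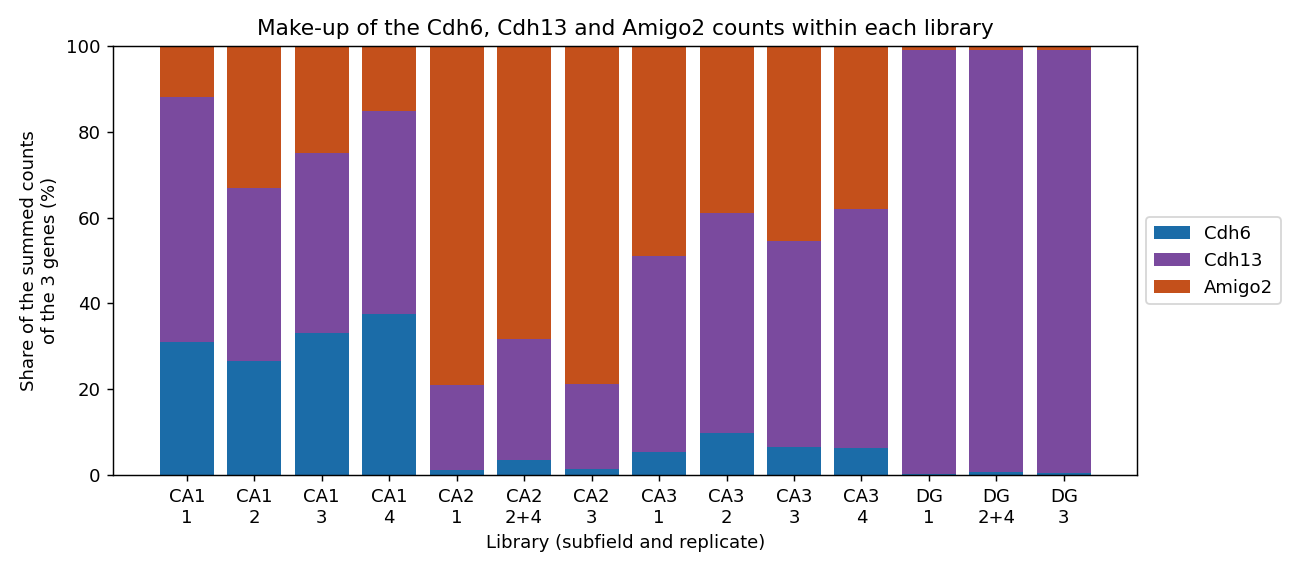
Share of the summed counts of Cdh6, Cdh13 and Amigo2 that each gene held in the 14 libraries (percent), by subfield and replicate. Cdh13 fills the DG bars (98.3% to 98.8%) and Amigo2 most of the CA2 bars (68.2% to 79.1%). CA1 has a larger Cdh6 share (26.7% to 37.6%) and a smaller Amigo2 share (12% to 33.2%) than CA3. The shares within a bar depend on each other.

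Outside its marked subfield, each gene was set beside the other genes that the study lists for that subfield, summed in CPM. The study chose these lists on the same samples. Cdh6 was highest outside CA1 in the summed CA2 replicates 2 and 4 (5.16 CPM) and in CA3 replicate 2 (4.66 CPM). The 33 other CA1 genes were also highest there within each subfield, at 510 CPM against 237 and 371 CPM in the other CA2 libraries, and at 331 CPM against between 120 and 143 CPM in the other CA3 libraries. They summed to between 1977 and 2219.7 CPM in CA1 and between 109.6 and 127 CPM in DG. Their part in the level of Cdh6 was not tested. Without the summed CA2 replicates 2 and 4 the log2 fold change of Cdh6 in CA2 over CA3 was -0.50 (adjusted p = 0.528 in edgeR).

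For Amigo2, the 13 other CA2 genes summed to 15.4, 56.3, 54.8 and 30.9 CPM in CA1 replicates 1 to 4, where Amigo2 itself had 5.78, 20.8, 13.1 and 7.73 CPM. The order of the 4 CA1 libraries was the same for both. In CA3 the list had 19.9, 36.2, 33.9 and 41.3 CPM in replicates 1 to 4, and there Amigo2 stayed between 18.3 and 22.1 CPM and was highest in the library with the lowest list. In CA2 the list had 299.7, 248 and 328 CPM in replicate 1, the summed replicates 2 and 4 and replicate 3, and in DG between 2.91 and 3.83 CPM. The part of the CA2 genes in the CA1 level of Amigo2 was not tested.

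For Cdh13, the 225 other DG genes summed to between 1120.4 and 1266 CPM in CA1, between 1065 and 1375 CPM in CA2 and between 1092 and 1643 CPM in CA3, against between 11233 and 12255 CPM in DG. The highest CA3 library, replicate 4, was also the one with the highest Cdh13 of CA3, at 29.3 CPM. In CA1 the DG genes and Cdh13 ran in opposite order. Replicate 1 had the lowest DG genes of CA1, at 1120.4 CPM, and the highest Cdh13, at 27.3 CPM. In CA2 the lowest DG genes were in replicate 1, at 1065 CPM, but the lowest Cdh13 was in replicate 3, at 31.3 CPM. The highest DG genes of CA2, at 1375 CPM, were in the summed replicates 2 and 4, which also had the highest Cdh13 of CA2. Without them the log2 fold change of Cdh13 in CA2 was 0.53 over CA3 (adjusted p = 0.039 in edgeR) and -0.46 for CA1 over CA2 (adjusted p = 0.0446). The part of the DG genes in the pyramidal levels of Cdh13 was not tested.

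**Figure D4:**
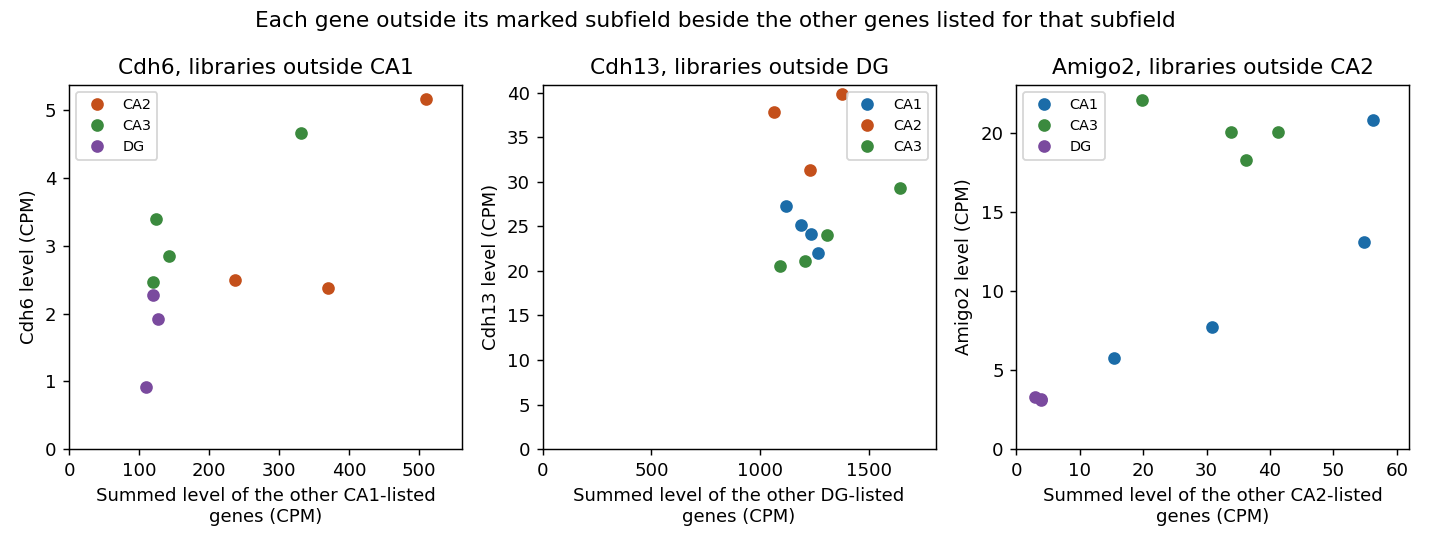
Level of each gene (CPM) in the libraries outside its marked subfield, against the summed level (CPM) of the other genes the study lists for that subfield. The highest Cdh6 points, 5.16 CPM in CA2 and 4.66 CPM in CA3, lie at 510 and 331 CPM of the CA1 genes, and the CA1 points of Amigo2 go up from 5.78 to 20.8 CPM while the CA3 points stay between 18.3 and 22.1 CPM.

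Among the named genes, those most like a member in pattern were taken by Pearson's r of log2 CPM over the 14 libraries, as a description over 209 genes that the study lists as markers. Since the members and the 209 genes were all listed for 1 subfield on these same libraries, the likeness rests largely on the marked subfield, and it is no finding that all 5 genes nearest to each member were listed for the same subfield as the member. Cdh6 was nearest to Pex5l (r = 0.966), an auxiliary protein of pacemaker channels, followed by Gabrr2 (r = 0.954), a GABA receptor subunit, and Ldb2 (r = 0.948), a cofactor of LIM-domain transcription factors. Crabp1 (r = 0.944), which binds retinoic acid, and Cd3e (r = 0.933) came next. The likeness of Cdh13 to its neighbours was closer: Fam163b reached r = 0.995, Ahcyl2 0.99, Filip1 0.988, and Penk, the precursor of enkephalins, and Galnt10 0.986 each. Ahcyl2, for example, had 476.0 CPM in DG, 116 CPM in CA2, 78.4 CPM in CA1 and 78.2 CPM in CA3, an order that it was picked for, as it was chosen by its correlation with Cdh13 over the same libraries. Amigo2 was nearest to Cyp1b1, a cytochrome P450 enzyme (r = 0.945). The means of Cyp1b1 had the same order as those of Amigo2, with 135.7 CPM in CA2, 21.9 in CA3, 19.2 in CA1 and 1.21 in DG. Casr, the calcium-sensing receptor (r = 0.92), Cacng5, an auxiliary subunit of AMPA receptors (r = 0.919), Papln (r = 0.915) and AABR07001734.1 (r = 0.897) followed, and Casr, Cacng5 and AABR07001734.1 had a higher mean in CA1 than in CA3, unlike Amigo2. The points of such a correlation share their library, and they fall into 4 subfields.

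Of the 92 genes of cadherin, protocadherin, catenin and leucine-rich repeat families that were to be counted, 6 had a name paired with an identifier, the 3 members and the 3 genes Fat4, Cdh23 and Lrrtm4. The rest, the nearest relatives of Cdh6 and Amigo2 included, were not analysed here. All 3 were on the study's list for DG, like Cdh13, and were tested among the pyramidal layers only. Fat4, a very large cadherin of the planar polarity pathway, had 747 ± 134 CPM in DG (SD, n = 3), 91.7 ± 25.1 CPM in CA3 (SD, n = 4), 57.9 ± 6.75 CPM in CA2 (SD, n = 3) and, lowest of all, 40.8 ± 6.56 CPM in CA1 (SD, n = 4). Its pyramidal order was thus not that of Cdh13: the log2 fold change of Fat4 was -1.18 for CA1 over CA3 (adjusted p = 1.64e-05 in edgeR), -0.66 for CA2 over CA3 (adjusted p = 0.0235) and -0.52 for CA1 over CA2 (adjusted p = 0.059). The call for CA2 over CA3 was lost without CA2 replicate 1 (-0.59, adjusted p = 0.0871), CA2 replicate 3 (-0.69, 0.0665), CA3 replicate 2 (-0.64, 0.0518) or CA3 replicate 4 (-0.49, 0.0768), and that for CA1 over CA2 was gained without CA3 replicate 1 (-0.52, 0.0328), CA3 replicate 4 (-0.50, 0.0358) or DG replicate 1 (-0.52, 0.0459), and with the replicate block (adjusted p = 2.17e-05 or 0.000282).

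Lrrtm4, a leucine-rich repeat protein of the postsynaptic membrane, had 201 ± 10.9 CPM in DG (SD, n = 3) and was higher in CA1, at 38.5 ± 4.94 CPM (SD, n = 4), than in CA3, at 26.3 ± 3.85 CPM (SD, n = 4). That log2 fold change of Lrrtm4 was 0.54 (adjusted p = 0.00237 in edgeR). CA1 over CA2, at 29.0 ± 2.85 CPM (SD, n = 3), gave 0.40 with an adjusted p of 0.04996, which lies at the threshold and was not called in 9 of 22 alternative settings, those without CA1 replicate 2, 3 or 4, CA2 replicate 1 or 3 or any DG library among them (adjusted p up to 0.177). CA2 over CA3 gave 0.14 (adjusted p = 0.67). Cdh23, a cadherin of hair cell tip links, had 2.5 ± 0.896 CPM in DG (SD, n = 3) and between 0.155 and 0.383 CPM as means in the pyramidal layers, which is near the level of 3 counts, and none of its pyramidal comparisons was called (adjusted p from 0.171 to 0.993 in edgeR).

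A further 9 genes of adhesion proteins, chosen by name from the study's marker list after it was seen, are given as levels without tests. In 8 of them the mark was DG. These held an integrin beta subunit, Itgb4 (18.3 ± 3.27 CPM in DG, SD, n = 3), the integrin alpha subunits Itga11 (19.4 ± 5.64 CPM) and Itga2b (2.08 ± 0.11 CPM), the desmosomal proteins Dsp (9.42 ± 1.03 CPM) and Ppl (30.2 ± 3.4 CPM), the tight junction protein Cldn1 (22.5 ± 7.39 CPM) and the immunoglobulin proteins Cntn5 (29.7 ± 3.65 CPM) and Igsf3 (38.4 ± 2.57 CPM). Spp1, an extracellular ligand of integrins, was the only one listed for CA2, like Amigo2, with 3.42 ± 2.18 CPM in CA2 (SD, n = 3) and 0 counts in the DG libraries. Cdh6 was the only one of the 15 adhesion genes described here that was listed for CA1. Besides the 3 members, the study lists 225 genes for DG, 33 for CA1, 14 for CA3 and 13 for CA2. Most listed genes of any kind were thus DG genes, so the DG listings here are no finding about adhesion genes.

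**Figure D5:**
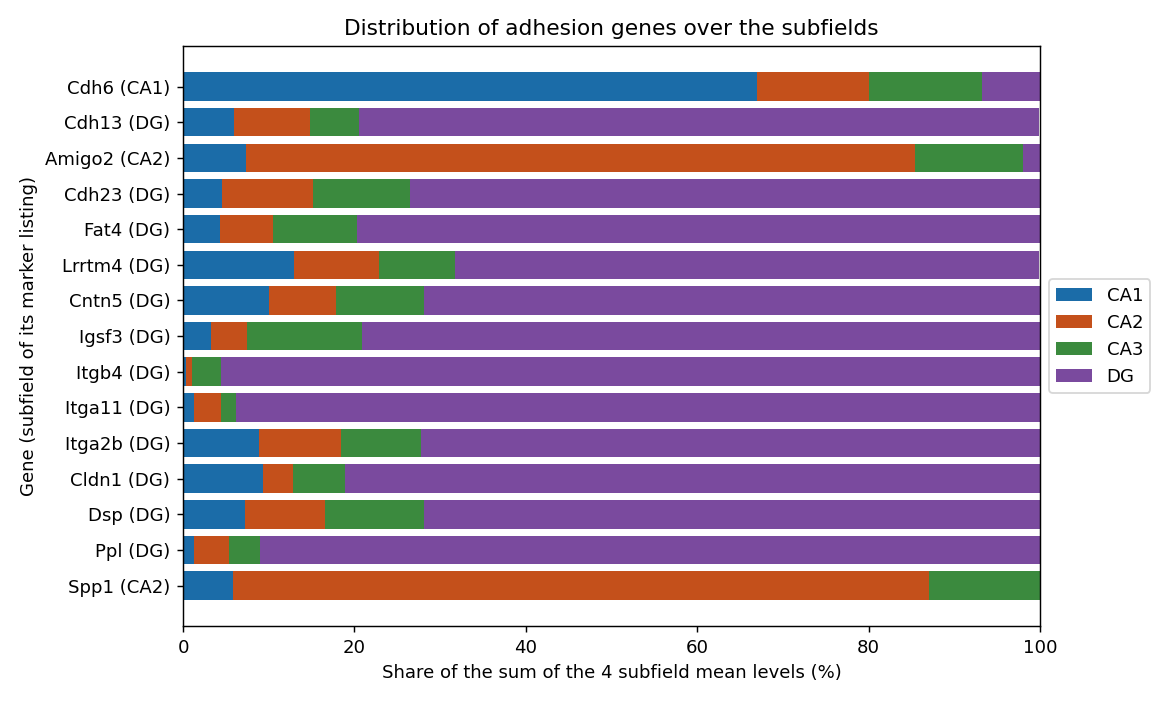
Share of the sum of the 4 subfield mean levels (percent) held by each subfield for the 3 members and 12 further adhesion genes, with the subfield of their marker listing in parentheses. Cdh6 has 67.0% in CA1, Amigo2 78.0% in CA2 and Cdh13 79.4% in DG. No gene shown has its largest share in CA3, and none of them was listed for CA3.

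By this share, Cdh13 was divided over the subfields much as Fat4 (79.7% in DG) and Igsf3 (79.2%) were. Itgb4 (95.5%), Itga11 (93.8%) and Ppl (91.0%) had larger DG shares. Outside DG these rest on few counts, at most 14 in a library for Itgb4, 10 for Itga11 and 22 for Ppl. Cdh6 was spread most widely of the members, with 13.1% in CA2, 13.2% in CA3 and 6.68% in DG. Amigo2 left 12.6% to CA3, 7.4% to CA1 and 1.99% to DG.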

How the data were processed

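RNA of 4 hippocampal subfields was sequenced in 16 libraries. Reads were aligned with STAR (genome build Rnor6), and the authors deposited unnormalized counts of reads per Ensembl gene; the counting program and its strand setting are not given in the sources used here, so genes that overlap, antisense genes and close copies have uncertain counts. Their tables of comparisons (base means, log2 fold changes, standard errors, statistics, p-values and adjusted p-values) were not used. Columns were matched to subfield and replicate by name.

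The repeated columns (chi-square per degree of freedom under 1.1) were summed, which left 14 libraries. Genes with more than 10 counts in sum were fitted with edgeR 4.0.16 (limma 3.58.1, R 4.3.3), with 1 coefficient per subfield, TMM and quasi-likelihood F-tests, adjusted by Benjamini-Hochberg over 17174 genes; calls have an adjusted p under 0.05. The common dispersion was 0.0189. Log2 CPM used a prior count of 2. The p-values set a difference between subfields against the spread between these samples within a subfield. The subfields were taken from the same rats, and this fit has no term for the rat, so that spread takes in differences between rats. The fit was tried on simulated counts of CA1vsCA2 with 200 changed genes among 16954. It called 87 of 100 genes changed 2-fold and 100 of 100 changed 4-fold, with 7 wrong calls. The simulated counts gave every gene the common dispersion, held no difference between rats and changed only genes with a mean over 1 CPM. The numbers were not split by level, and recovery at the larger spread fitted for Cdh6 or Amigo2 was not tested. Figures and summaries used Python 3.11.15, numpy 2.4.6, pandas 2.3.3, scipy 1.17.1 and matplotlib 3.10.9.

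The members and lists were chosen with earlier results of these data known. Symbols came from the 288 identifiers that the study's marker list names; no identifier of the RefSeq table matched, so family counts (6.52% of names matched) were not made, and coordinates and sequences are not given. Genes named are the members, matched family genes, the 5 genes most alike in pattern (named, mean of at least 1 CPM) and adhesion genes of the marker list. Alternatives were all 16 columns, no filter on low counts or filterByExpr, size factors by median of ratios, DESeq2 1.42.0, the replicate block, leaving out each library and, added after the data were seen, thinning to 3216512 counts.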

Additional observations from a re-analysis of the deposited data

How the results depend on the processing

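In 22 alternative settings the 9 described fold changes, Cdh13 in CA1vsCA2 and Amigo2 in CA1vsDG and CA3vsDG kept their direction, and the last 3 their calls. Amigo2 in CA1vsCA3 was not called with DESeq2 (log2 fold change -0.7314, adjusted p = 0.101), median-of-ratios size factors (-0.6859, 0.0512) or filterByExpr (-0.6894, 0.0528), and leaving out 1 library gave between -1.1607 and -0.4463. Cdh6 in CA2vsDG was called with DESeq2 (0.8723, 0.043), no filter (0.8422, 0.0354), filterByExpr (0.8666, 0.0497) and all 16 columns (0.9152, 0.021) but was 0.4587 (0.512) after thinning, and leaving out 1 library gave between 0.3669 and 1.1409. Thinned to equal totals, Cdh6 in CA3vsDG was 0.648 (0.275) and Cdh13 in CA2vsCA3 0.5137 (0.051), so that neither was called. Cdh13 in CA1vsCA3 was -0.0362 after thinning. Leaving out 1 library gave between 0.6351 and 1.1445 for Cdh6 in CA3vsDG. Cdh6 in CA2vsCA3, at 0.00, changed sign uncalled with DESeq2 and median-of-ratios size factors (-0.0064 each), no filter (-0.005), filterByExpr (-0.0015) and thinning (-0.1894), and was between -0.501 and 0.2397 leaving out 1 library. Among uncalled values of Cdh23, CA1vsCA2 was 0.055 after thinning and CA2vsCA3 between -0.6622 and 0.2113 leaving out 1 library. The cause was not tested.

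With the replicate block, each repeated pair standing under its lower or higher number since its rat is unknown, Cdh6 in CA2vsDG was called (log2 fold change 0.9138, adjusted p = 0.0122, or 0.9137, 0.0106), Fat4 in CA1vsCA2 was called (-0.6202 or -0.5407), Cdh23 in CA2vsCA3 was 0.0011 with the lower number, and the calls of CA2vsCA3 over all genes moved from 1313 to 2028 or 2219. No other call of the 3 members changed. Deviations from the subfield mean correlated above 0.1 in 13 of 14 pairs of libraries with the same number (lowest -0.013, median 0.242). With different numbers they did so in 7 of 50 pairs (median -0.105). As a set, libraries with the same number were thus more alike, though not every pair met that limit, and the main fit leaves this likeness out. Few counts limit the precision of Cdh6 and Amigo2 in DG and of Cdh23, Itgb4, Itga11, Itga2b, Ppl and Spp1 outside their marked subfields.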
